A study of Caenorhabditis elegans with 2 samples.

Results

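The nuclear genes of the mitochondrial respiratory chain were examined for regions of NHR-12 enrichment at their promoters in Caenorhabditis elegans. Members were the nuclear protein-coding genes whose symbol starts with nuo-, cox-, atp-, cyc-, isp-, sdh or ucr-, together with gas-1, mev-1 and lpd-5. This gave 42 genes of the 19973 nuclear protein-coding genes in the annotation. The data came from chromatin immunoprecipitation followed by sequencing (ChIP-seq), which recovers the DNA that a protein is crosslinked to. The worms were of strain OP318, with the genotype unc-119(ed3) III; wgIs318, whose stably expressed transgene encodes NHR-12 with GFP and FLAG at its C-terminus. They were whole L1 larvae, the first stage after hatching, of pooled sexes and unknown age, and they formed 1 group of 2 biological replicates. Signal from tagged protein in different tissues of the whole animal cannot be told apart, and the labels do not say which promoter drives the transgene. With 1 group there was no comparison between conditions.

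The respiratory chain passes electrons from nutrients to oxygen in the inner mitochondrial membrane. Complex I takes them from NADH and complex II from succinate, complex III hands them on to cytochrome c, and complex IV delivers them to oxygen. The proton gradient built up on the way drives complex V, the ATP synthase. Most subunits are encoded in the nucleus, and a few in the mitochondrial genome. Mutants of several of these genes, such as gas-1, mev-1 and isp-1, have altered lifespan or stress resistance. NHR-12 belongs to the nuclear hormone receptors, transcription factors with a zinc-finger DNA-binding domain.

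A gene was counted where the midpoint of a region lay in its promoter window, which reached 500 bp upstream and 200 bp downstream of its annotated 5′ end. The authors deposited 1 region list for each replicate, 1 joint list over both replicates, and the peaks that passed their irreproducible discovery rate (IDR) step, which compares ranks of regions between replicates. The nuclear regions numbered 26857 in the replicate 1 list, 30000 in the replicate 2 list, 3798 in the joint list and 146 in the IDR set. The replicate and joint lists hold background regions as well as peaks. All 164 IDR peaks, nuclear and mitochondrial, were the 164 joint regions of highest signal. Signal is the authors' value for a region, on no stated scale, and is read here only within 1 list, by size or by rank. The lists carry no read counts, so sequencing depth is unknown.

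Regions stood at respiratory chain promoters in a larger share of genes than over the nuclear genome in each list. An IDR peak lay in the window of 2 members (4.76%), cox-5A and atp-1, and of 0.511% of all nuclear protein-coding genes. A joint region lay in the window of 8 members (19%), against 4.98% of all genes. Replicate 1 listed a region at 20 members (47.6%) and at 21.4% of all genes. Replicate 2 listed one at 18 members (42.9%) and at 24.8% of all genes. Both replicates listed a region at 12 members (28.6%), against 8.16% of all genes. No list held a region at 16 of the 42 members and at 12372 of all 19973 genes. Members are genes and not replicates, so these shares are set side by side with no test. As many strongest regions taken from 1 replicate alone gave, for the joint count, 6 members from replicate 1 (14.3%, against 4.32% of all genes) and 5 from replicate 2 (11.9%, against 4.83%). For the IDR count they gave 1 member from replicate 1 (2.38%, against 0.416%) and 2 from replicate 2 (4.76%, against 0.476%). With an upstream limit of 250 bp, 1 member had an IDR peak (2.38%, against 0.315% of all genes) and 4 a joint region (9.52%, against 3.04%). At that limit 13 members had a region of replicate 1 (31%, against 13.3%) and 7 a region of each replicate (16.7%, against 4.01%).

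The 8 members with a joint region were cox-5A, atp-1, cox-5B, ucr-2.1, atp-2, mev-1, nuo-1 and sdha-1, in falling order of joint signal. They came from each of the 5 complexes. Both replicates also listed a region in the window of all 8, against 72% of all 994 genes with a joint region. The sequence at the centre of the joint region is given for 5 of the 6 members whose region lay upstream in intergenic sequence, since these are stretches where the signal was centred. The stretch at atp-1, the other such member, is not shown here. Each is 201 bases around the midpoint in WBcel235 (ce11), read 5′ to 3′ on the strand of the member, from the RefSeq genome. Capitals mark matches, on either strand, to the GC-rich motif GGGCGG, the repeat GAGAGA or the TATA-box letters TATAAA. The matches did not overlap each other, and the sequence of nuo-1 held none. The stretches were chrIII:12905085-12905285 for cox-5A, chrX:12018053-12018253 for ucr-2.1, chrIII:5228152-5228352 for atp-2, chrII:11097441-11097641 for nuo-1 and chrX:8546185-8546385 for sdha-1. The sdha-1 stretch is on the minus strand and the others are on the plus strand.
cox-5A: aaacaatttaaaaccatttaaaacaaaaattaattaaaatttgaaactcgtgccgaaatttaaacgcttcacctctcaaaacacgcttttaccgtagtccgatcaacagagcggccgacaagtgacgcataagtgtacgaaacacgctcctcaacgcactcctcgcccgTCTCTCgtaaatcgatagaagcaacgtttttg
ucr-2.1: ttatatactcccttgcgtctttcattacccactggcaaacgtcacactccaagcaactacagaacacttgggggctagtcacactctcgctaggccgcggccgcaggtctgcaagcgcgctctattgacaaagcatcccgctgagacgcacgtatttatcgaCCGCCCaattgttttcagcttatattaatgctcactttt
atp-2: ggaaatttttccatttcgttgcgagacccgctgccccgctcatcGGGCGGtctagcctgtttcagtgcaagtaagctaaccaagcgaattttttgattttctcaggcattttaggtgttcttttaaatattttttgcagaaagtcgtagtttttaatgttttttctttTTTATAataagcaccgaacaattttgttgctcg
nuo-1: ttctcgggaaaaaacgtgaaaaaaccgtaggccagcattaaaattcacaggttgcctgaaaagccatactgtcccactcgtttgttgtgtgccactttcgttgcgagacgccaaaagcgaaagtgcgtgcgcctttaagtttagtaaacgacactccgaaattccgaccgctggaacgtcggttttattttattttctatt
sdha-1: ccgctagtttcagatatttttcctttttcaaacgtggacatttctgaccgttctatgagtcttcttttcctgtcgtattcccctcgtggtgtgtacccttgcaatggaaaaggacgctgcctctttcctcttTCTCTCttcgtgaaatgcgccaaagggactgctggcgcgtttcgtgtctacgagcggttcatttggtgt

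Base composition at these centres was set beside that at other regions. The GC content of the 8 member centres, each 201 bp long, had a median of 42%, against 33.3% over all 3798 nuclear joint centres and 44.3% over the 146 nuclear IDR peaks. The member centres lay in promoter windows by definition, while the other centres were not limited to them. GGGCGG was present in 3 of the 8 member centres (37.5%), against 4.27% of all joint centres and 7.53% of IDR centres. GAGAGA was present in 2 of the 8 (25%), against 15.6% of all joint centres and 43.2% of IDR centres. TATAAA was present in 2 of the 8 (25%), against 23.4% of all joint centres and 14.4% of IDR centres. The nuclear receptor half-site AGGTCA and the E-box CACGTG were each found in 0 of the 8, against 4.34% and 3.42% of all joint centres. Their shares of IDR centres were 6.85% and 5.48%. All motifs were searched on both strands.

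In the promoters of all 42 members, taken from 250 bases before to 50 after the 5′ end, the median GC content was 35%, against 34.3% over all promoters. GGGCGG was present in 9 member promoters (21.4%), against 7.83% of all promoters. TATAAA was present in 16 (38.1%), against 37.9%, and GAGAGA in 8 (19%), against 21.8%. AGGTCA and CACGTG were found in 0 of the 42 member promoters, against 8.27% and 5.82% of all promoters. These matches describe letters in fixed windows and say nothing of binding by any factor.

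**Figure D1:**
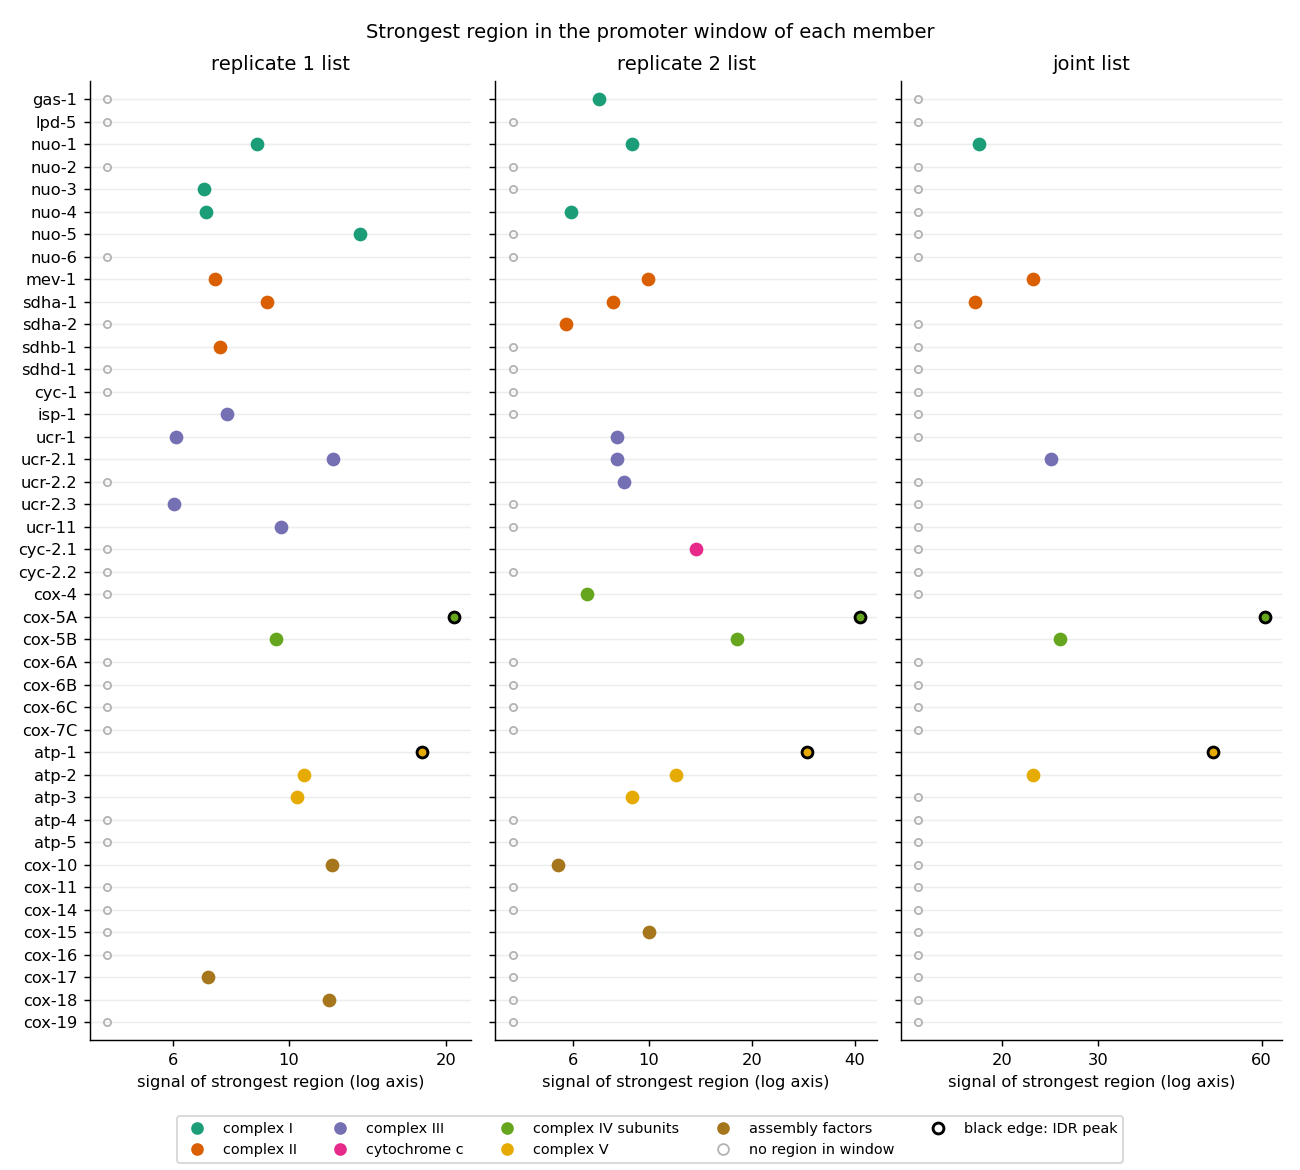
Signal of the strongest region in the promoter window of each of the 42 members, 1 panel for each of the replicate 1, replicate 2 and joint lists, with signal in the authors' units on a log axis that differs between panels. Colour gives the complex, open grey points mark members with no region, and black edges mark cox-5A and atp-1, the 2 members with an IDR peak, which have the highest member signal in all 3 lists.

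The plot of signal by member shows the order within each list. Among the 42 members, cox-5A was highest in every list and atp-1 was next. For the 8 members with a joint region, the median joint signal was 23.7, against 21.2 over all 994 genes with one. Over the 20 members with a region of replicate 1 the median signal was 9.28, against 8.38 over all genes with one, and the median rank lay 31.4% down the list, against 43.9%. Over the 18 members with a region of replicate 2 the median signal was 8.70, against 7.33, and the median rank lay 24.8% down the list, against 43.3%.

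The complexes differed in how many of their genes had a region, but each holds few genes, so 1 gene moves the share of a complex by 12.5 percentage points or more. Over all nuclear protein-coding genes, 8.16% had a region of each replicate and 4.98% a joint region. Complex V had regions of each replicate at 3 of its 5 members (60%) and joint regions at 2 (40%). Complex II had both at 2 of 5 members (40%). Complex IV subunits had both at 2 of 7 (28.6%). Complex III had a region of each replicate at 2 of 7 members (28.6%) and a joint region at 1 (14.3%). Complex I had a region of each replicate at 2 of 8 members (25%) and a joint region at 1 (12.5%). These shares cover members only, and further genes of complexes I and V, under other symbols, are counted below. The assembly factors, which build or mature the complexes without staying in them, had a region of each replicate at 1 of 8 members (12.5%), with no joint region. The 2 cytochrome c genes had neither. Among the 34 subunit and cytochrome c genes, without the assembly factors, 11 had a region of each replicate (32.4%) and 8 a joint region (23.5%). The order of the complexes was not the same in the replicate 1 list. It held a region at 5 of 7 complex III members (71.4%) and at 3 of 5 in each of complexes II and V (60%). The counts were 4 of 8 for complex I (50%), 3 of 8 for assembly factors (37.5%) and 2 of 7 for complex IV subunits (28.6%), against 21.4% of all genes. In replicate 2, complexes II and V were highest, at 3 of 5 members each (60%, against 24.8%).

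**Figure D2:**
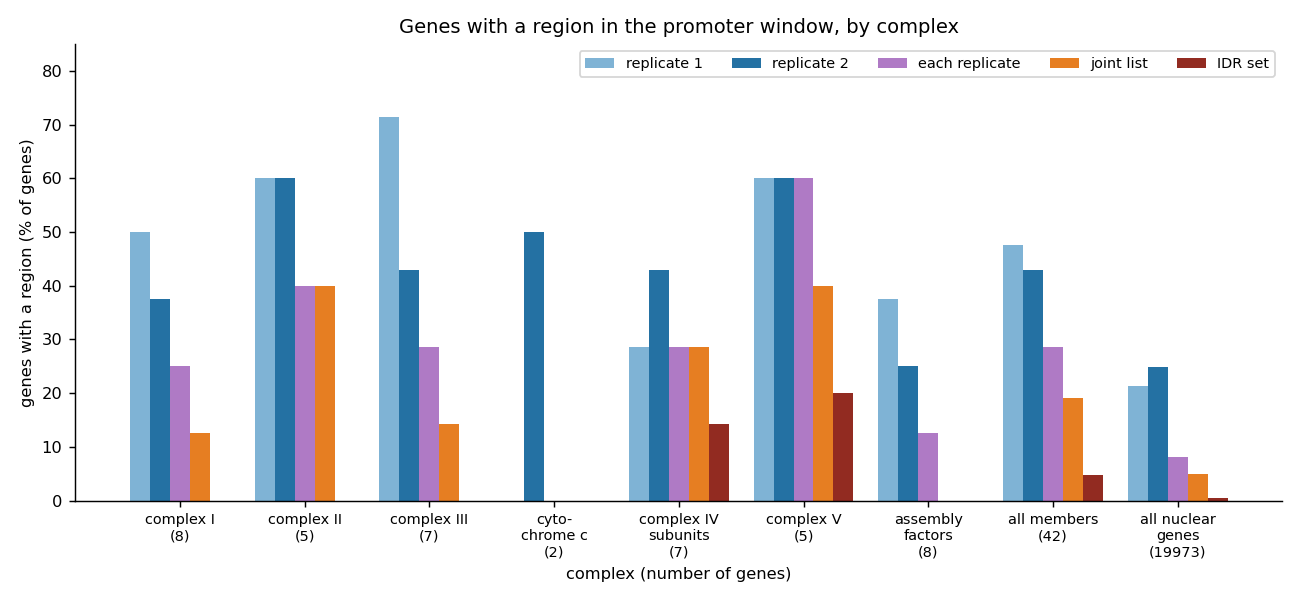
Share of genes (%) with a region in the promoter window, by complex, with the number of genes in parentheses; bars stand for the replicate 1 list, the replicate 2 list, a region of each replicate, the joint list and the IDR set. Joint regions were at 40% of complex II and complex V members and at none of the cytochrome c and assembly factor genes, against 4.98% of all nuclear genes.

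Complex I was represented by 8 members. The joint region was that of nuo-1 (WBGene00003831, chrII:11097837-11100146), which encodes the flavoprotein subunit where NADH is oxidised. Its joint signal was 18.1, rank 2920 of 3817, close to the lowest joint signal of 17.2, and its midpoint lay 296 bp upstream in intergenic sequence. The regions of nuo-1 had signals of 8.68 in replicate 1 (rank 10572 of 26878) and 8.92 in replicate 2 (rank 6772 of 30000), with midpoints 61 bp apart. This stretch is shared, since the joint midpoint also lay 337 bp upstream of rpl-36.A, a ribosomal protein gene on the other strand. The strongest replicate 1 region of complex I was at nuo-5, which encodes the large iron-sulfur subunit, with a signal of 13.7 (rank 1342) and its midpoint in a coding exon 84 bp downstream of the 5′ end. Replicate 2 listed none at nuo-5, nor did the joint list. The other complex I member with a region of each replicate was nuo-4, an accessory subunit, with signals of 6.96 in replicate 1 and 5.91 in replicate 2. The members lpd-5, nuo-2 and nuo-6 had no region in any list.

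Complex II, succinate dehydrogenase, oxidises succinate in the citric acid cycle as well. Its membrane subunit mev-1 (WBGene00003225, chrIII:10334277-10335168), a cytochrome b subunit, had a joint signal of 22.7 (rank 894), with the midpoint 107 bp downstream of the 5′ end in an intron. Its replicate 1 region had a signal of 7.22 (rank 17893) at 108 bp downstream. Its replicate 2 regions had signals of 9.97 (rank 4217) at 49 bp upstream and 5.70 (rank 24298) at 154 bp downstream. So the stronger replicate 2 region and the replicate 1 region of mev-1 lay on opposite sides of the 5′ end. The joint midpoint also fell in the window of jmjd-4, 366 bp from it. The flavoprotein gene sdha-1 (WBGene00015391, chrX:8542757-8546021) had a joint signal of 17.8 (rank 3167) at 264 bp upstream, in intergenic sequence that no other window covered. Its replicate regions had signals of 9.09 in replicate 1 (rank 9072) and 7.87 in replicate 2 (rank 10507), 40 bp apart. Its paralog sdha-2 had a region of replicate 2 only, with a signal of 5.72. No list held a region at sdhd-1, the other cytochrome b subunit.

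Complex III, the cytochrome bc1 complex, had its joint region at ucr-2.1 (WBGene00012158, chrX:12018429-12021206), a core subunit gene. The joint signal was 24.6 (rank 584), with the midpoint in intergenic sequence 276 bp upstream of ucr-2.1 and 110 bp upstream of nmat-1, a gene of NAD synthesis on the other strand. Replicate 1 gave a signal of 12.14 (rank 2593) at 290 bp upstream, the strongest of that replicate in the complex. Replicate 2 gave a signal of 8.10 (rank 9555) at 454 bp upstream, in the UTR of nmat-1. The replicate midpoints of ucr-2.1 were therefore 164 bp apart, and the joint midpoint is nearer to nmat-1. When each region was given to its nearest protein-coding 5′ end only, ucr-2.1 lost its place and 7 members kept a joint region. The paralog ucr-2.2 had the strongest replicate 2 region in the complex, with a signal of 8.49 (rank 8109), and no replicate 1 region. The remaining member with regions of both replicates was ucr-1, another core subunit gene, with signals of 6.09 in replicate 1 and 8.10 in replicate 2. No list held a region at cyc-1, the cytochrome c1 gene.

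The 2 genes for cytochrome c, the mobile carrier between complexes III and IV, differed in replicate 2. The region of cyc-2.1 in replicate 2 had a signal of 13.8 (rank 857) with its midpoint in an intron 69 bp downstream of the 5′ end, while replicate 1 listed none. Its paralog cyc-2.2 had no region in any list.

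Complex IV, cytochrome c oxidase, held the strongest member. The joint region of cox-5A (WBGene00012553, chrIII:12905491-12906619), at chrIII:12904997-12905372, had a signal of 60.9 and rank 55 of 3817. It is 1 of the IDR peaks, and its midpoint lay 306 bp upstream in intergenic sequence that was in no other promoter window. Replicate 1 listed a region of signal 20.7 (rank 145 of 26878) at 369 bp upstream, and replicate 2 one of signal 41.4 (rank 25 of 30000) at 281 bp upstream. The replicate midpoints were 88 bp apart, on either side of the joint midpoint. The next subunit gene was cox-5B (WBGene00000371, chrI:9788725-9790050), with a joint signal of 25.6 (rank 521) at 113 bp downstream, in its own UTR. Replicate 1 gave it a signal of 9.47 (rank 7812) at 84 bp downstream. Replicate 2 gave it signals of 18.1 (rank 265) at 31 bp upstream and 15.6 (rank 460) at 176 bp downstream, in an intron. Thus 2 regions of replicate 2 flanked the single one of replicate 1 at cox-5B. No list held a region at cox-6A, cox-6B, cox-6C or cox-7C. The annotated start of cox-6B makes it 87197 bp long, and replicate 2 had a region when the 5′ end of any of its transcripts was accepted.

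Complex V, which makes ATP, held the other IDR peak, at the alpha subunit gene atp-1 (WBGene00010419, chrI:12652277-12654655). This peak at chrI:12652055-12652430 had a signal of 48.9 (rank 89 of 3817), with the midpoint 34 bp upstream of atp-1 and 156 bp upstream of mcrs-1 on the other strand. Replicate 1 gave signals of 18 (rank 280) at 11 bp upstream and 8.41 (rank 11701) at 194 bp downstream, and replicate 2 a signal of 29.1 (rank 69) at 34 bp upstream. Both replicates thus placed their stronger region within 23 bp of each other at the start of atp-1. The beta subunit gene atp-2 (WBGene00000229, chrIII:5228417-5230536), whose product forms the catalytic core with the alpha subunit, had a joint signal of 22.7 (rank 887) at 165 bp upstream. Its regions had signals of 10.7 in replicate 1 (rank 4786) at 155 bp upstream and 12 in replicate 2 (rank 1719) at 211 bp upstream. The joint midpoint also lay in the windows of C34E10.12 and C34E10.10, at 371 and 368 bp from their 5′ ends. The gene atp-3, for the stalk subunit OSCP, had a signal of 10.4 (rank 5481) at 183 bp upstream in replicate 1 and of 8.95 (rank 6656) at 42 bp downstream in replicate 2. The replicate 1 midpoint was nearer to F27C1.2, at 66 bp upstream of that gene, and the replicate 2 midpoint also lay in its window. Those midpoints were 225 bp apart, and the joint list held no region there. No list held a region at atp-4 or atp-5, also stalk subunit genes.

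Of the assembly factors, cox-10, the heme farnesyltransferase gene, had the strongest replicate 1 region, with a signal of 12.09 (rank 2655) at 397 bp upstream, inside a coding exon of Y38E10A.33. Its replicate 2 region, of signal 5.42 (rank 26827), was 313 bp away. The strongest replicate 2 region was at cox-15, a gene of heme A synthesis, with a signal of 9.99 (rank 4185) at 447 bp upstream, inside a coding exon of cchl-1. No list held a region at cox-11, cox-14, cox-16 or cox-19. With the 5′ end of any transcript accepted, however, cox-11 had a joint region and a region of each replicate.

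**Figure D3:**
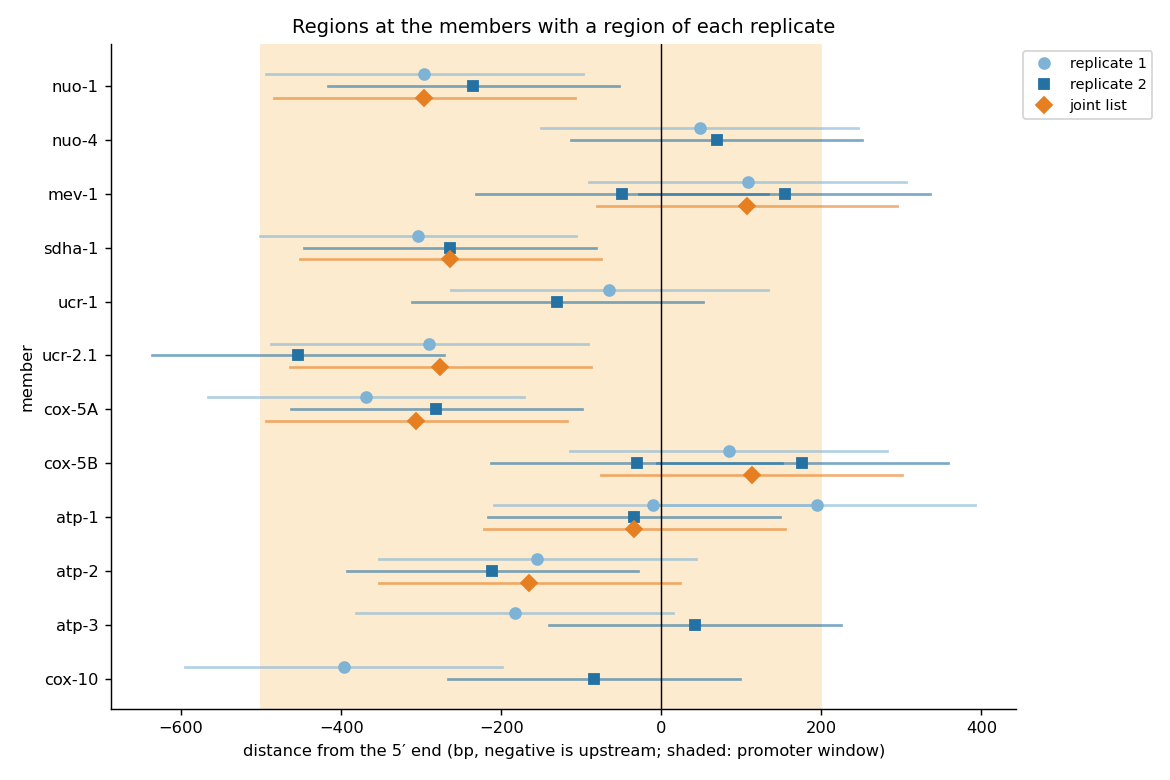
Position of regions relative to the 5′ end (bp, negative is upstream) at the 12 members with a region of each replicate; points are midpoints, lines are region extents, and the shaded band is the promoter window. At 9 of the 12 the nearest midpoints of the replicates lie at most 100 bp apart, with ucr-2.1, atp-3 and cox-10 the exceptions.

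The replicates overlapped only in part. Of the 42 members, 8 had a region of replicate 1 only and 6 of replicate 2 only. Over all 19973 genes these counts were 2644 and 3321. As a share, replicate 1 only was thus more frequent among members than over all genes, and replicate 2 only was less frequent. The 12 members with both were 60% of the members listed in replicate 1 and 66.7% of those listed in replicate 2, against 38.1% and 32.9% for all genes. Of those 12 members, 9 (75%) had midpoints of the replicates within 100 bp, against 53.2% of the 1630 genes with both. The plot of positions shows ucr-2.1, atp-3 and cox-10 as the members whose replicates lay farther apart.

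Regions of the members lay on both sides of the 5′ end. The joint midpoint was upstream at 6 of the 8 members (75%), against 84.7% of all genes with one. Between 400 and 200 bp upstream there were 9.52 joint midpoints per 100 members, against 1.75 per 100 genes overall. Between 200 bp upstream and the 5′ end there were 4.76 per 100 members and 1.84 per 100 genes. In the first 200 bp downstream there were 4.76 per 100 members and 0.771 per 100 genes. These bins hold 4, 2 and 2 member midpoints.

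**Figure D4:**
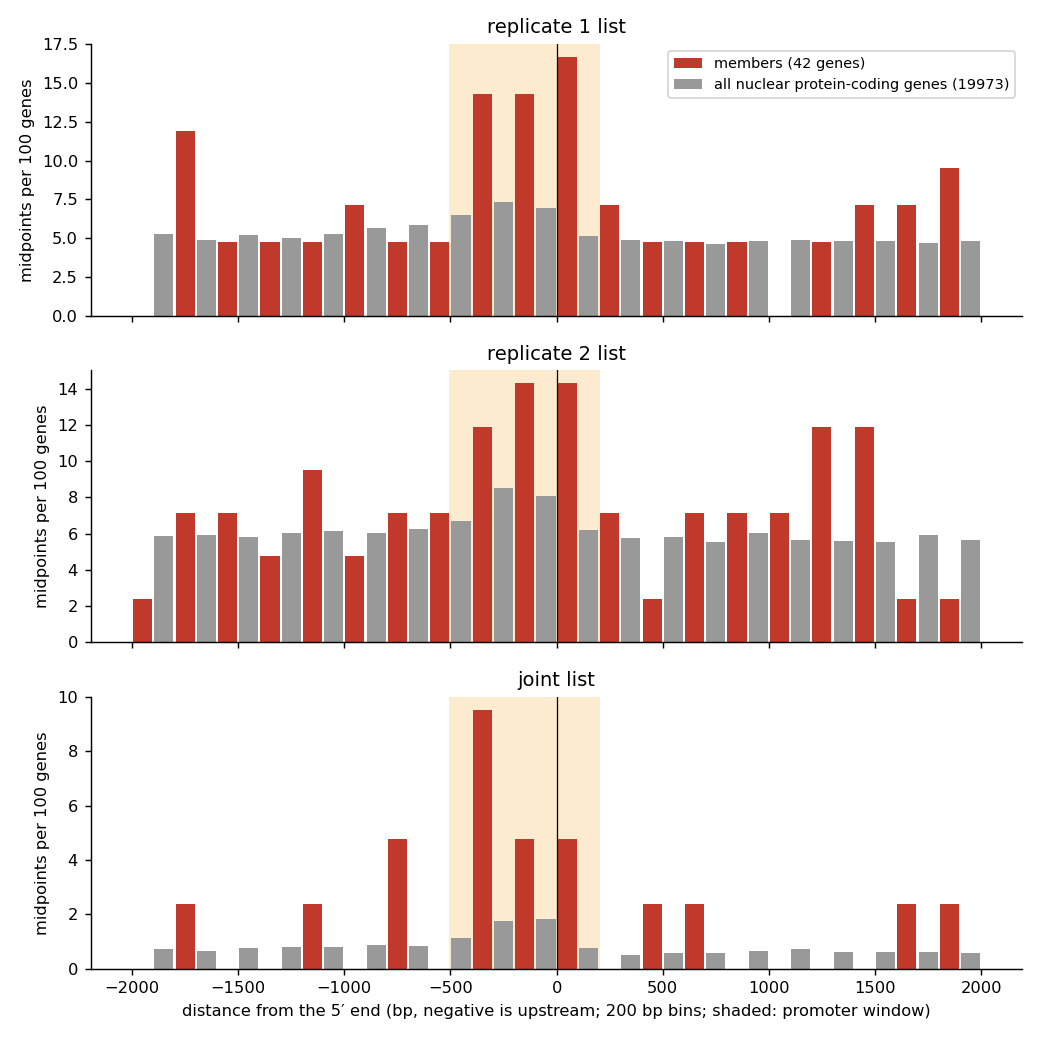
Region midpoints per 100 genes in 200 bp bins within 2000 bp of the 5′ end on either side, for the 42 members (red) beside all 19973 nuclear protein-coding genes (grey), in the replicate 1, replicate 2 and joint lists. In the joint list the highest member bar is the bin from 400 to 200 bp upstream, with 4 midpoints, and each member midpoint adds 2.38 per 100.

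Some joint regions fell just outside the window. Joint midpoints lay 774 bp upstream of cox-6A (signal 26.2), 685 bp upstream of cox-18 (19.1), 589 bp downstream of the 5′ end of nuo-2 (26.8) and 618 bp downstream of that of cox-11 (18.2). When the 5′ end of any transcript was accepted, cox-11 did have a joint region in its window. The nearest one to cyc-2.1, 1053 bp upstream, had a signal of 80.2 and is the IDR peak in the window of rpl-20, a ribosomal protein gene. The median distance to the nearest joint midpoint was 6125 bp for members and 10354 bp for all genes.

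Genes of the respiratory chain often stand close to another gene. The promoter window of 24 members (57.1%) overlapped that of another protein-coding gene, against 20.3% of all genes. A joint region was present at 5 of these 24 members (20.8%), against 9% of all genes with an overlapping window. Among the 18 members whose window stood alone, 1 had an IDR peak (5.56%), 3 a joint region (16.7%) and 4 a region of each replicate (22.2%). The shares of all such genes were 0.295%, 3.95% and 6.95%. The member counts did not all lean one way. Replicate 2 listed a region at 9 of the 24 members with an overlapping window (37.5%) and at 9 of the 18 whose window stood alone (50%), against 30% and 23.5% of all genes in the same classes. For replicate 1 the members were 12 of 24 (50%) and 8 of 18 (44.4%), against 27.3% and 19.9%. With an overlapping window, 1 member had an IDR peak (4.17%) and 8 a region of each replicate (33.3%), against 1.36% and 12.9% of all such genes. Of the joint regions at members, 5 of 8 lay in a window of another gene too (62.5%), against 30.2% over all genes. Such regions cannot be assigned to 1 of the genes that share them. Beyond this split, the part of shared windows in the member shares was not tested.

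Chromosomes I and III hold 22 of the 42 members, with 28.6% of members and 14.4% of all genes on I, and 23.8% of members and 13.2% of all genes on III. On these chromosomes 5 of the 22 members had a joint region (22.7%), against 6.52% of their genes, and both IDR peaks lay there. On the other chromosomes 3 of 20 members had a joint region (15%), against 4.39% of their genes. The part of chromosome in the member shares was not tested beyond that.

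Further genes of complex I and of the ATP synthase carry other symbols, and no such list was made for complexes II, III and IV. Of 25 complex I genes under nduf-, ndua-, ndub-, nduc-, ndus- and nduv- symbols, 6 had a joint region (24%) and 6 a region of each replicate (24%). Of 8 ATP synthase genes under other symbols, 2 had a joint region (25%) and 2 a region of each replicate (25%). The share of all genes with a region of each replicate was 8.16%. Together with the genes under nuaf- and mai- symbols, 9 of 37 genes had a joint region (24.3%, against 4.98% of all genes) and 0 an IDR peak (against 0.511%).

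Other gene lists of mitochondria and of the ribosome give the members a scale. Joint regions were at 8 of 42 members (19%), at 4 of 13 mitochondrial import genes (30.8%), at 3 of 17 citric acid cycle genes (17.6%), at 9 of 70 mitochondrial ribosome genes (12.9%) and at 1 of 8 ubiquinone synthesis genes (12.5%). The vacuolar ATPase, a proton pump related to the ATP synthase but outside mitochondria, had joint regions at 3 of 21 genes (14.3%). The cytosolic ribosome had joint regions at 30 of 78 genes (38.5%) and IDR peaks at 10 (12.8%). Among these lists, IDR peaks were otherwise at 2 mitochondrial ribosome genes, mrpl-28 with a signal of 55.4 and mrps-7 with a signal of 45.6. The signal of cox-5A, 60.9, was above both, and that of atp-1, 48.9, lay between them. The cytosolic ribosome genes of highest IDR signal had 130 for rpl-3, 82.2 for rpl-35 and 80.2 for rpl-20, all above cox-5A, and 59.7 for rpl-15, just below it.

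**Figure D5:**
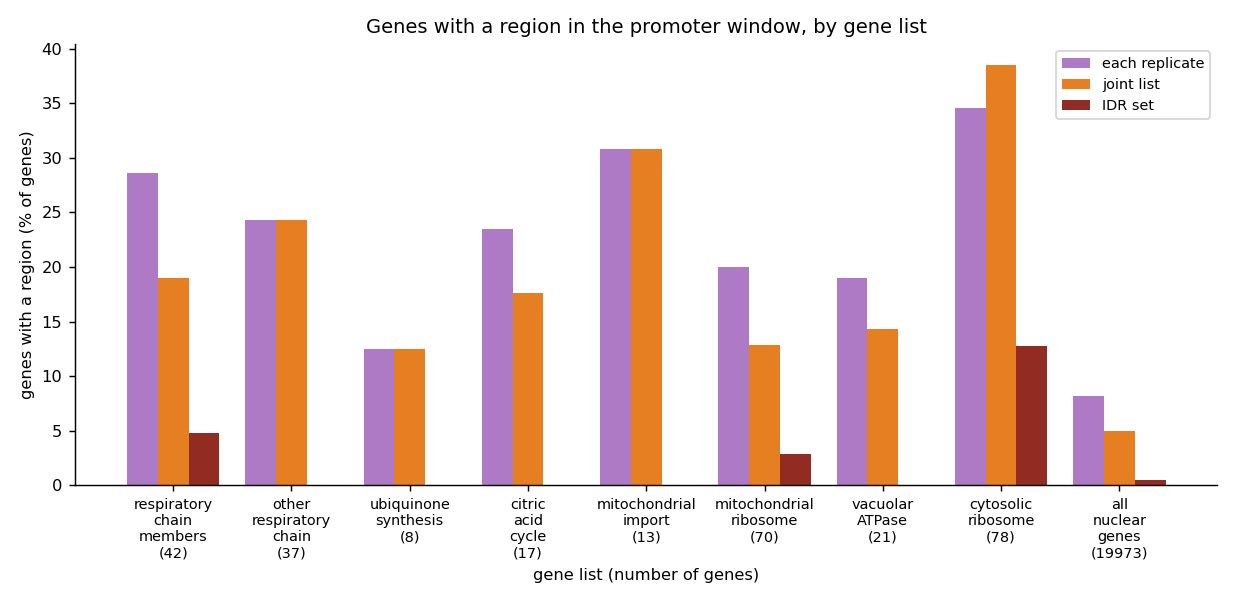
Share of genes (%) with a region in the promoter window for the 42 members and 7 other gene lists, with all nuclear protein-coding genes last and the number of genes in parentheses; bars stand for a region of each replicate, the joint list and the IDR set. The members, at 19% in the joint list, lie between the mitochondrial import genes at 30.8% and all nuclear genes at 4.98%, and the cytosolic ribosome is highest at 38.5%.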

How the data were processed

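ChIP-seq was done on 2 biological replicates. The authors deposited 4 region lists in ce11 with a signal per region; the replicate and joint lists were input to their IDR step and include background, per the labels of the deposited files. Aligner, peak caller and IDR threshold are not given in the sources used here. Signal was read within a list only. Matching ce10 lists were not used.

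Midpoints were compared with the 5′ ends of protein-coding genes in Ensembl release 115, whose assembly WBcel235 has the ce11 coordinates, with python 3.11.15, numpy 2.4.6 and pandas 2.3.3. On simulated data, 200 of 200 planted regions were found in the window of their gene. They were planted inside those windows, so this checks the counting code only and not the member counts. No test was run, since genes are not replicates and there is 1 group. The members, gene lists and alternatives were chosen with earlier results of these data known. Every member with an IDR or joint region was named, then per complex the strongest region of each replicate and the members with none. Other listed genes were named for an IDR peak, at most 4 per list. Further genes were named for a shared window, for a midpoint they hold, for regions of both replicates, as a paralog or for a nearby joint region, chosen after values were seen. Protein sequences were not used here.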

Additional observations from a re-analysis of the deposited data

How the results depend on the processing

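Of 47 alternatives over 5 counts of members, 33 stayed within 1.5 times the main count and 14 did not. With an upstream limit of 250 bp, 1 member had an IDR peak, 4 a joint region, 13 a region of replicate 1 and 7 a region of each replicate. Keeping the upper 50% of a list by signal left 1 member with an IDR peak and 12 with a region of replicate 1. With each region given to its nearest protein-coding 5′ end only, 14 members had a region of replicate 1 (33.3%, against 19.3% of all genes). By that rule 9 had a region of each replicate (21.4%, against 6.86%), with atp-3, cox-10 and ucr-2.1 lost. In the 18 windows that overlap no other window, an alternative chosen after seeing the data, these counts were 1 (IDR), 3 (joint), 8 (replicate 1), 9 (replicate 2) and 4 (each replicate), where fewer genes were counted by construction. Leaving out each replicate in turn, with as many strongest regions of the other, gave 1 to 2 members with an IDR peak and 5 to 6 with a joint region. Of those with a joint region, 3 were shared with the 8 when replicate 1 was used and 4 when replicate 2 was used. For a region of each replicate, leaving 1 out requires only the other and gave 18 to 20. In each of these alternatives the share of members stayed above that of all genes. No paired analysis was possible because there is 1 group. Read depth is unknown, 8 genes carry the joint count, and transcription of the members was not measured here.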

Other observations

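The respiratory chain subunits encoded in the mitochondrial genome were counted by midpoints inside the gene. Of the 12 protein-coding genes, 9 held a region of replicate 1, 0 a region of replicate 2 and 7 a joint region that was also an IDR peak. The highest joint signals were 739 in ND5, a complex I subunit gene, and 671 in CYTB, the cytochrome b gene of complex III. The highest nuclear member, cox-5A, had 60.9. Copies of the mitochondrial genome were not measured, so these values do not compare enrichment between the mitochondrial and nuclear genes. No region was listed in any list for COX1, COX3 or ND6. Replicate 2 listed no region anywhere on the mitochondrial genome, while replicate 1 listed 21. The 18 IDR peaks on the mitochondrial genome thus had no counterpart in the replicate 2 list.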
